A study of Mus musculus with 10 samples.

Results

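The 42 genes described here act in the cell cycle, and they were taken as a named list, chosen with earlier results of these data known. All 42 were among the 32285 genes of the deposited count tables. Following their known roles, 17 were grouped as S members (DNA replication and its preparation) and 25 as G2/M members (entry into and passage through mitosis). They were followed in 5 droplet RNA libraries of cells from SW1 mouse melanomas, each with a matched T cell receptor library. SW1 cells had been injected into the right flank of female C3H/HeJ mice aged 4 to 6 weeks, and tumors had grown for 10 days by the labels. The libraries were control day 0 (before treatment, a cohort of 3 mice), control day 7 and control day 21 (plain drinking water), and L-fuc day 7 and L-fuc day 21 (water with L-fucose, a sugar that cells attach to glycoproteins). The labels gave the L-fuc dose as 100 mM in one place and 100 nM in another, and the later cohorts as 5 or 6 mice. No mouse carried a gene deletion, every tumor came from 1 cell line, and each library was a pool of the cohort, so each condition had 1 library. No p-value was therefore computed between conditions. Ratios between conditions are given with 95% intervals that cover counting error only, and differences between cell classes were tested over the 5 libraries.

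A dividing cell copies its DNA in S phase and separates the copies in mitosis, with the gap phases G1 and G2 on either side. Genes for replication proteins are transcribed by E2F factors at the G1/S boundary, and genes for the mitotic machinery are transcribed later, under MuvB, B-MYB and FOXM1 complexes that act through a promoter element called the CHR. In tumors these transcripts mark dividing malignant cells, but activated T cells and some macrophages also divide there.

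Cells were placed in classes by a few marker transcripts, and a barcode here is 1 droplet with at least 500 genes and at most 10% mitochondrial UMIs. Tumor cells had a Sox10 UMI and none of Ptprc (which encodes CD45), macrophages had at least 10 UMIs of C1qa, C1qb and C1qc together, T cells had at least 2 UMIs of Cd3e, Cd3d and Cd3g together, and the remaining barcodes were kept as other barcodes. The summed level of the tumor markers, among them the gating gene Sox10, was 3788 to 4723 CPM (the UMIs of a gene in every 1000000 UMIs of that class and library) in tumor cells. In other barcodes it was 724 to 4525 CPM, and at control day 21 it was 4525 CPM there beside 4597 CPM in tumor cells. Fibroblast markers summed to 12697 CPM in the other barcodes of control day 21, and 5.43% of those barcodes held a Sox10 UMI. Sparc was also among the tumor markers, and its part in the 4525 CPM, or that of fibroblasts, was not tested. Whether other barcodes held tumor cells that the gate missed was not tested. Although the labels described a CD45+ sort, tumor cells without a Ptprc UMI made up 260 of 1470, 8648 of 17897, 2820 of 9034, 471 of 1573 and 297 of 1182 kept barcodes in the order day 0, then control and L-fuc at day 7, then control and L-fuc at day 21, which all lists of 5 values follow. Total depth was 14439185 to 119047810 UMIs a library, and median depth was 7394 to 24199 UMIs per tumor cell, 4171 to 8308 per macrophage and 3025 to 5747.5 per T cell. Tumor RNA was also found in immune barcodes, and most of all at control day 7, where 21.9% of macrophages and 25.1% of T cells held a Sox10 UMI against 7.65% and 8.75% at L-fuc day 7 and at most 5.51% and 0% elsewhere. Between 36 and 306 kept barcodes of a library carried a barcode sequence also present in another library. Barcodes that passed more than 1 class gate (23 to 693 a library) were left out of the classes, and 43.5% to 65.1% of them held 5 or more members. T cells at day 21 numbered only 54 in the control library and 34 in the L-fuc library, so their levels there rest on few cells. They are among the 5 libraries of each T cell test, and class counts without both day 21 libraries are given beside the tests.

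Promoter sequence was read for the members because the 2 groups are transcribed by different factors. Of the 42 members, 34 had an entry in the RefSeq promoter table of mouse build GRCm38.p6 (250 bases before to 50 after each gene's start). The 6 stretches below show the 160 bases before the start, in the direction of transcription. They were chosen as 3 S members with E2F letters and 3 G2/M members with CHR letters. Capitals mark TTTGAA (the CHR letters) or TTTCCCGC, TTTGGCGC, TTTCGCGC or TTTGCCGC (E2F letters) on either strand, and adjoining capitals are overlapping matches on both strands.
Mcm5 (chr8:75109349-75109508, plus strand): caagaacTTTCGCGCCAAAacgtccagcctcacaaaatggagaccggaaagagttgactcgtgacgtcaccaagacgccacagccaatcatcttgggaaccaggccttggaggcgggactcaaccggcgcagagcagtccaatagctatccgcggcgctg
Mcm6 (chr1:128359706-128359865, minus strand): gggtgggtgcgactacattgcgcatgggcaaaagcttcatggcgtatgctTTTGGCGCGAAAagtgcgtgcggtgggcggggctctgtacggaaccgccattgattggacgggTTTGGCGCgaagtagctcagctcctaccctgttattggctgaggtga
Cdc6 (chr11:98907991-98908150, plus strand): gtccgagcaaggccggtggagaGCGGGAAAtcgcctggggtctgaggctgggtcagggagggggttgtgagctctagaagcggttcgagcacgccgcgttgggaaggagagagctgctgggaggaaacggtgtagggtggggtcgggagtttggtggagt
Cdk1 (chr10:69352913-69353072, minus strand): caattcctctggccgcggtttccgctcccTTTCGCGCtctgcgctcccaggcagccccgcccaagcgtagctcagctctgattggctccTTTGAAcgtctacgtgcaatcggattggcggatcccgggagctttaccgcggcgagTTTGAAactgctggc
Cdc20 (chr4:118437344-118437503, minus strand): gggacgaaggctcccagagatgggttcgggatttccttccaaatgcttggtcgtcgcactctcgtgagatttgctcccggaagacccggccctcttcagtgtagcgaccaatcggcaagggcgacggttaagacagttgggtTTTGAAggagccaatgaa
Ube2c (chr2:164769769-164769928, plus strand): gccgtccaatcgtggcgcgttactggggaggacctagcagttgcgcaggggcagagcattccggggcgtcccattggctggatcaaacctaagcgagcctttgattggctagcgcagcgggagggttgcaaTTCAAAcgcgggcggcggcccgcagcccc
Counted by gene, where a gene with more than 1 promoter counts if any holds the letters, TTTGAA was found for 13 of 20 G2/M members and 1 of 14 S members, Mcm2, against 20.2% of all 27025 genes in the table. The 13 were those of Mki67, Top2a, Ube2c, Cdk1, Cdc20, Cenpf, Cks1b, Ccnb2, Aurka, Plk1, Bub1b, Cenpa and Hmmr. E2F letters showed the opposite distribution, for 7 of 14 S members (Mcm3, Mcm5, Mcm6, Mcm7, Uhrf1, Cdc6 and Pclaf) and 1 of 20 G2/M members (Cdk1), against 2.6% of all genes. Cdk1, the kinase that starts mitosis, was the only member with both. CCAAT was found for 10 of 14 S and 17 of 20 G2/M members, against 41.1% of all genes. These are matches of letters in a fixed window and were not tested for binding.

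Among the S members, the replication helicase subunits Mcm2 to Mcm7 were measured in every class. Mcm6, the highest of the 6 in tumor cells, stood at 112, 76.2, 85.8, 140.3 and 148 CPM in tumor cells, at 55.1, 55.6, 49.2, 54.5 and 47.1 CPM in macrophages and at 96.6, 77.7, 76.2, 106 and 148 CPM in T cells. Every tumor library lay above every macrophage library, and the T cell values overlapped the tumor values. Levels of Mcm5 were 35.6, 28.4, 31.1, 47.6 and 55.2 CPM in tumor cells and 35.9, 25.6, 31.0, 34.0 and 24.1 CPM in macrophages, with overlap, and tumor cells were the higher class in 4 libraries. Pcna, the sliding clamp of DNA polymerase, was the second highest member in macrophages by its median. Its levels were 115, 100.5, 109, 107 and 82.1 CPM in macrophages, 86.3, 86.9, 94.3, 94.3 and 114 CPM in tumor cells and 109, 93.4, 96.9, 54.8 and 96.4 CPM in T cells. In 4 of the 5 libraries macrophages were higher than tumor cells, and L-fuc day 21 was the exception. Pclaf, the PCNA-associated factor, was at 149, 132, 115, 151 and 206 CPM in tumor cells against 108, 73.7, 80.0, 70.1 and 46.8 CPM in macrophages, and all tumor values were above all macrophage values. Uhrf1, which helps to copy DNA methylation onto new strands, followed the same order, with 39.4, 48.5, 52.7, 72.0 and 97.6 CPM in tumor cells and 19.4, 23.8, 18.8, 17.2 and 11 CPM in macrophages. Genes of nucleotide supply did not share one order: Rrm2, a ribonucleotide reductase subunit, was at 81.2, 60.1, 59.5, 91.2 and 122 CPM in tumor cells and 43.0, 26.0, 24.1, 27.9 and 21.7 CPM in macrophages without overlap, whereas thymidine kinase Tk1 was at 61.1, 41.4, 38.0, 62.3 and 89.1 CPM and 77.4, 37.1, 56.6, 76.9 and 39.8 CPM, with macrophages higher in 3 libraries. Across libraries Mcm2 ran from 34.2 to 61.8 CPM in tumor cells and 16.2 to 20.9 in macrophages, Mcm3 from 51.2 to 98.1 and 39.0 to 50.3, Mcm4 from 37.5 to 70.7 and 19.7 to 31.2, and Mcm7 from 52.7 to 82.1 and 22.9 to 32.8. None of these 4 overlapped between the classes, and Mcm3 came closest. The share of all genes without overlap between these classes was not computed. On library totals, which CPM uses, 7584 of 13575 tested genes were higher in tumor cells than in macrophages at an edgeR adjusted p under 0.05. Separation on this scale is therefore not particular to the members. Thymidylate synthase Tyms ran from 48.5 to 99.5 and 19.9 to 38.3 CPM, the reductase subunit Rrm1 from 47.3 to 118 and 29.0 to 37.0, and the helicase factor Gins2 from 29.1 to 37.6 and 17.8 to 25.6. The licensing factor Cdc6 and the G1/S cyclins Ccne2 and Ccne1 were the 3 lowest members in tumor cells, with medians of 6.77, 7.74 and 12.6 CPM.

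G2/M members held the 4 highest medians in tumor cells, on a scale of molecules counted per transcript end and not divided by gene length. Stmn1, a regulator of microtubules, was the highest member in every class by its median, and its levels were 424, 368, 309.6, 388 and 498 CPM in tumor cells, 182, 190.1, 176, 149.5 and 115 CPM in macrophages and 196, 249, 177, 21.9 and 185 CPM in T cells. All 5 tumor values exceeded all macrophage and T cell values. Top2a, the topoisomerase that untangles sister chromatids, reached 184, 224, 178, 286 and 433 CPM in tumor cells, 63.2, 127, 82.9, 74.2 and 75.6 CPM in macrophages and 60.6, 177, 104, 14.6 and 339 CPM in T cells. Ube2c, an enzyme that marks mitotic proteins for destruction, was at 238, 189.8, 144, 212 and 318 CPM in tumor cells and 68.1, 101, 81.9, 72.3 and 67.4 CPM in macrophages. Neither gene's tumor values overlapped its macrophage values, but for both the T cells of L-fuc day 21 lay at or above most tumor libraries, in a library where 2 of 34 T cell barcodes held 1057 and 400 of 1661 member UMIs. Pbk, a mitotic kinase, separated the classes furthest, at 60.2, 57.5, 45.4, 74.5 and 108 CPM in tumor cells, 16.2, 22.4, 13.4, 10.8 and 9.08 CPM in macrophages and 10.3, 25.2, 13.8, 0 and 23.4 CPM in T cells. Cenpf, a kinetochore protein, stood at 119, 145, 109.6, 203 and 241 CPM in tumor cells and 28.5, 69.0, 34.7, 36.3 and 52.2 CPM in macrophages, and Aurka, a kinase of the spindle poles, at 26.4, 24.9, 17.2, 32.9 and 48.6 CPM and 8.36, 15.5, 10.4, 10.0 and 12.4 CPM. For all 3 the tumor libraries lay above the macrophage libraries. Mki67, the proliferation marker Ki-67, did not separate them, since its levels were 110.0, 139.8, 101, 180.4 and 266 CPM in tumor cells, 60, 139.5, 90.2, 96.0 and 130.4 CPM in macrophages and 47.5, 180.2, 86.0, 47.5 and 391 CPM in T cells. At control day 7 it was about as high in macrophages as in tumor cells, and T cells were higher than both. Cdc20, the activator of the anaphase-promoting complex, and Ccnb1, the mitotic cyclin, had medians of 84.3 and 51.7 CPM in tumor cells against 22.0 and 18.2 CPM in macrophages. Cks2, a small partner of the cell cycle kinases, was at 154, 134, 119, 202 and 237 CPM in tumor cells, 61.2, 92.2, 94.3, 104 and 115 CPM in macrophages and 73.6, 109, 96.1, 65.7 and 214 CPM in T cells, so every tumor value was above every macrophage value and only the T cells of L-fuc day 21 exceeded tumor libraries. Of the other spindle and kinetochore genes, in tumor cells Cenpa ranged from 71.6 to 146 CPM, Cenpe from 28.7 to 67.4, Tpx2 from 47.1 to 129, Nusap1 from 30.9 to 84.0 and Hmmr from 25.0 to 63.4. Their macrophage ranges were 56.2 to 74.1, 14.3 to 30, 27.8 to 40.0, 18.5 to 24.8 and 10.4 to 18.5 CPM, of which Cenpa and Cenpe overlapped with tumor cells. Checkpoint and passenger genes were at 15.4 to 40.7 CPM (Bub1), 11.2 to 27.7 CPM (Bub1b), 18.8 to 62.6 CPM (Plk1), 31.2 to 85.5 CPM (Aurkb) and 61.1 to 132 CPM (Birc5) in tumor cells. In macrophages these 5 were at 7.37 to 16.5, 7.86 to 14.1, 13.0 to 15.5, 18.0 to 24.8 and 56.0 to 91.0 CPM, and the ranges of Bub1, Bub1b and Birc5 overlapped with those of tumor cells. Among cyclins and regulators of anaphase, tumor ranges were 35.7 to 97.6 CPM for Ccna2, 35.5 to 75.5 CPM for Ccnb2, 78.2 to 139.7 CPM for Cks1b, 73.0 to 127 CPM for Pttg1 (securin) and 80.7 to 174 CPM for Cdk1. The macrophage ranges, in the same order, were 27.3 to 37.0, 23.2 to 36.3, 47.5 to 62.7, 43.1 to 63.2 and 35.6 to 43.8 CPM, with overlap for Ccna2 and Ccnb2 alone. As for the S members, the share of all genes that separate in this way was not computed.

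**Figure D1:**
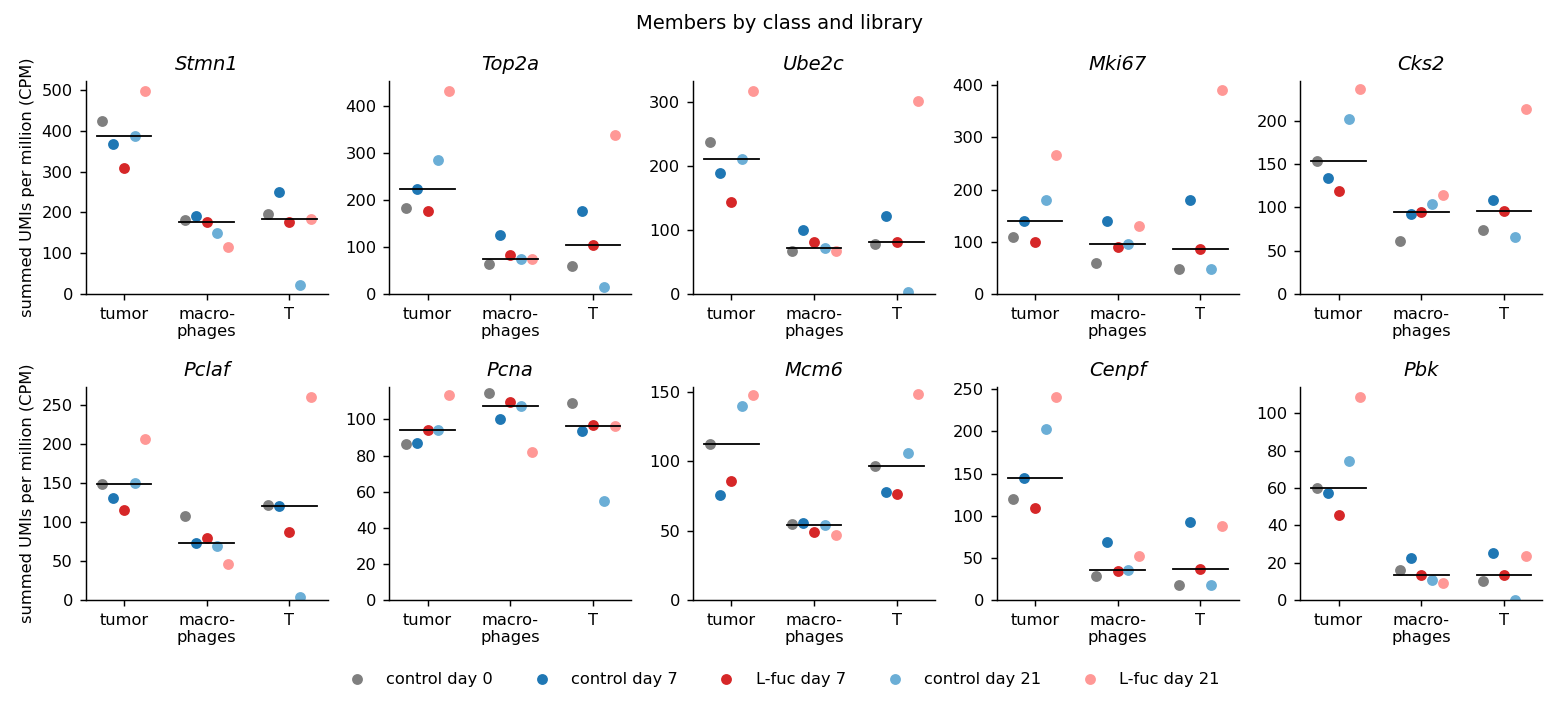
Level of 10 members (CPM, linear axes from 0) in tumor cells, macrophages and T cells, with 1 point per library in the colour of its condition and a line at the median of the 5. The tumor points of Stmn1, Pbk and Cenpf lie above all macrophage and T cell points, the macrophage points of Pcna lie above its tumor points in 4 libraries, and the T cell points of L-fuc day 21, from 34 barcodes, stand high for Mki67, Top2a and Ube2c.

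Classes were then compared gene by gene with edgeR's quasi-likelihood test on UMI sums per class and library, with the library as a block and trimmed-mean (TMM) scaling, over 13575 genes. Against macrophages, 9 of 42 members were higher in tumor cells and 1 was lower at a Benjamini-Hochberg adjusted p under 0.05, where 30.8% and 35.5% of all tested genes were. Both counts are below the share of all genes. The 9 were Pbk, Cenpf, Uhrf1, Cdc20, Ccne2, Ccnb1, Hmmr, Aurka and Mcm6, of which 6 are G2/M members. Pbk was higher by 1.61 on the log2 scale (SE 0.30, edgeR adjusted p = 0.000667), Cenpf by 1.27 (SE 0.26, edgeR adjusted p = 0.00115) and Uhrf1 by 1.12 (SE 0.26, edgeR adjusted p = 0.00269). Pcna was the member that was lower in tumor cells, with a log2 difference of -0.76 (SE 0.19, edgeR adjusted p = 0.00382), and Mki67 differed by -0.06 (SE 0.31, edgeR adjusted p = 0.883). Members had a median log2 difference of 0.41, against -0.05 over all genes, and 35 of 42 were positive. With every barcode thinned to 2000 UMIs the member median was 0.12, against -0.05 over all genes, and 24 of 40 tested members were positive. Leaving out 1 library ended 3 of the 9 calls: Hmmr (edgeR adjusted p = 0.0640 without L-fuc day 7 and 0.0740 without L-fuc day 21), Aurka (0.0809 without L-fuc day 21) and Mcm6 (0.0901 without control day 21 and 0.0502 without L-fuc day 21). Thinning ended those 3 and the call of Uhrf1 (log2 difference 0.62, edgeR adjusted p = 0.0654).

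Against T cells, 11 of 42 members were higher in tumor cells and none was lower at the same threshold, where 28.3% and 33.6% of all tested genes were. The higher count is near the share of all genes. Without correction, 12 members had an edgeR p under 0.05. Pbk (1.85, SE 0.34, edgeR adjusted p = 0.000845), Cenpf (1.52, SE 0.28, edgeR adjusted p = 0.000755) and Aurka (1.29, SE 0.27, edgeR adjusted p = 0.00193) led on the log2 scale, and the others were Uhrf1, Cdk1, Cdc20, Ccnb1, Stmn1, Aurkb (the chromosomal passenger kinase), Bub1 (a spindle checkpoint kinase) and Gins2 (a helicase subunit). All 25 G2/M members were positive with a median of 0.74, whereas 12 of 17 S members were positive with a median of 0.17. Calls of 4 of the 11 ended when 1 library was left out: Cdk1 (edgeR adjusted p = 0.0501 without control day 0), Stmn1 (0.0507 without control day 0 and 0.0707 without L-fuc day 21), Gins2 (0.0658 without L-fuc day 7 and 0.0752 without L-fuc day 21) and Bub1 (0.0637 to 0.0836 in each fit without 1 library other than L-fuc day 21). The corresponding medians against macrophages were 0.50 for G2/M members and 0.29 for S members. Between the immune classes few members passed: Gins2 (0.83, SE 0.28, edgeR adjusted p = 0.0308) and Pcna (0.55, SE 0.19, edgeR adjusted p = 0.0400) were higher in macrophages, and Mcm6 was lower (-0.52, SE 0.15, edgeR adjusted p = 0.0183), where 21.2% of all genes were higher and 19.5% lower. Each of these 3 calls ended in at least 1 fit that left out a library: Gins2 reached an edgeR adjusted p of 0.120 without L-fuc day 7, Pcna 0.116 without control day 21 and Mcm6 0.0868 without control day 0, and the counts ran from 0 without L-fuc day 7 to 4 higher without L-fuc day 21. The split between higher and lower calls depended on scaling. With library totals in place of TMM, the median of all genes moved to 0.58 for tumor cells against macrophages, 0.21 against T cells and -0.43 for macrophages against T cells, and members called higher and lower became 35 and 0, 18 and 0, and 0 and 3. Over all 13575 genes, those called higher and lower became 7584 and 2948, 5072 and 3630, and 1851 and 4921. Under that scaling Pcna was not called between tumor cells and macrophages. CPM uses library totals too, so Mcm3 and Gins2, which were higher in tumor cells than in macrophages on CPM, had log2 differences of -0.06 and -0.11 under TMM. When both day 21 libraries were left out, the tumor against T cell counts were 17 higher and 1 lower, and the macrophage against T cell counts 7 higher and 0 lower. Counts over all genes in those fits are not given here.

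**Figure D2:**
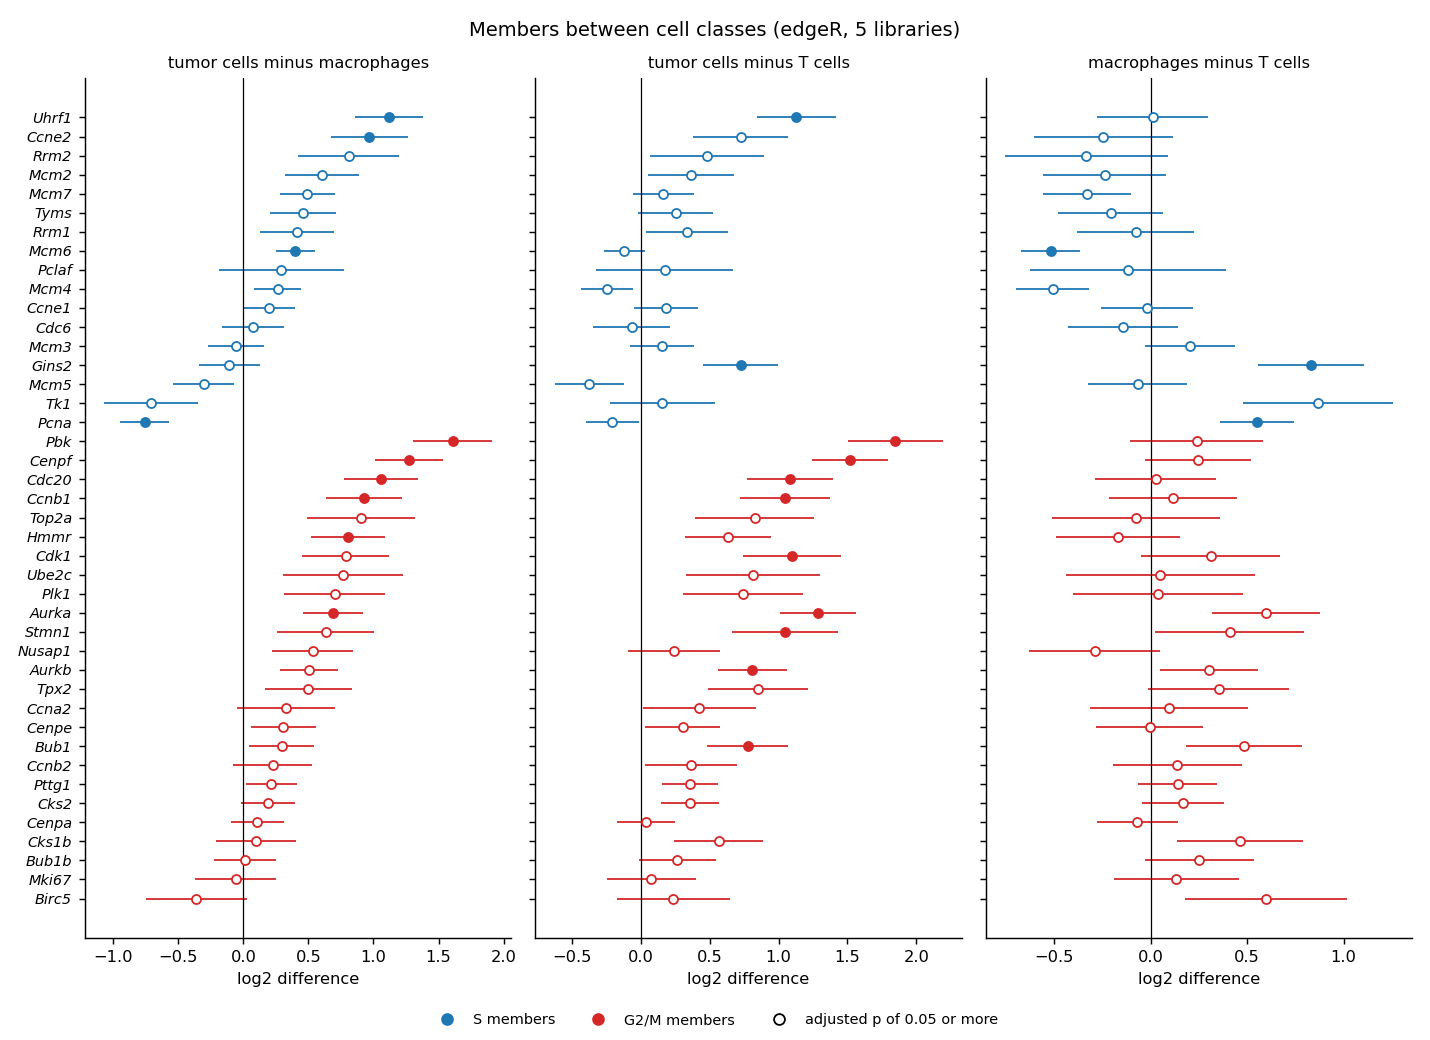
Log2 difference of each member between classes (edgeR, TMM scaling, horizontal axis, bars of 1 SE) for tumor cells against macrophages, tumor cells against T cells and macrophages against T cells, with filled points for an adjusted p under 0.05. Pbk and Cenpf lie furthest to the right in both tumor comparisons, at 1.61 and 1.27 against macrophages, and Pcna furthest to the left against macrophages, at -0.76.

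The members were next counted within single barcodes, and a barcode with at least 5 of the 42 detected is called cycling. The cutoff divides a continuous range: at control day 7, 1031 tumor cells held 4 members and 787 held 5. Cycling barcodes made up 53.5%, 48.9%, 48.2%, 69.0% and 76.1% of tumor cells, 38.6%, 44.8%, 38.5%, 35.2% and 39.1% of macrophages, and 20.1%, 38.0%, 24.9%, 22.2% and 29.4% of T cells. Tumor cells were higher than macrophages in 5 of 5 libraries, by 19.9 points on average (SD 14.7, n = 5 libraries, exact sign-flip p = 0.062, two-sided). Macrophages in turn were higher than T cells in 5 of 5 libraries, by 12.3 points (SD 4.42, n = 5, exact sign-flip p = 0.062), and 0.062 is the smallest p that 5 libraries allow. Depth moved with these differences, since tumor cells had the most UMIs per cell in every library. When each barcode was thinned to 2000 UMIs and shallower ones were left out, cycling tumor cells came to 22.7%, 23.0%, 19.5%, 28.1% and 44.3%, against 18.4%, 21.2%, 20%, 16.2% and 17.4% of macrophages. At equal depth the tumor minus macrophage difference was 8.88 points and positive in 4 of 5 libraries (exact sign-flip p = 0.125), with L-fuc day 7 the exception, while macrophages still exceeded T cells by 7.54 points in 5 of 5 (exact sign-flip p = 0.062). With thinning and Sox10-free immune barcodes at once, macrophages exceeded T cells in 4 of 5 libraries (7.33 points, exact sign-flip p = 0.125). Leaving out immune barcodes with a Sox10 UMI alone gave 22.1 points between tumor cells and macrophages and 11.9 between macrophages and T cells.

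**Figure D3:**
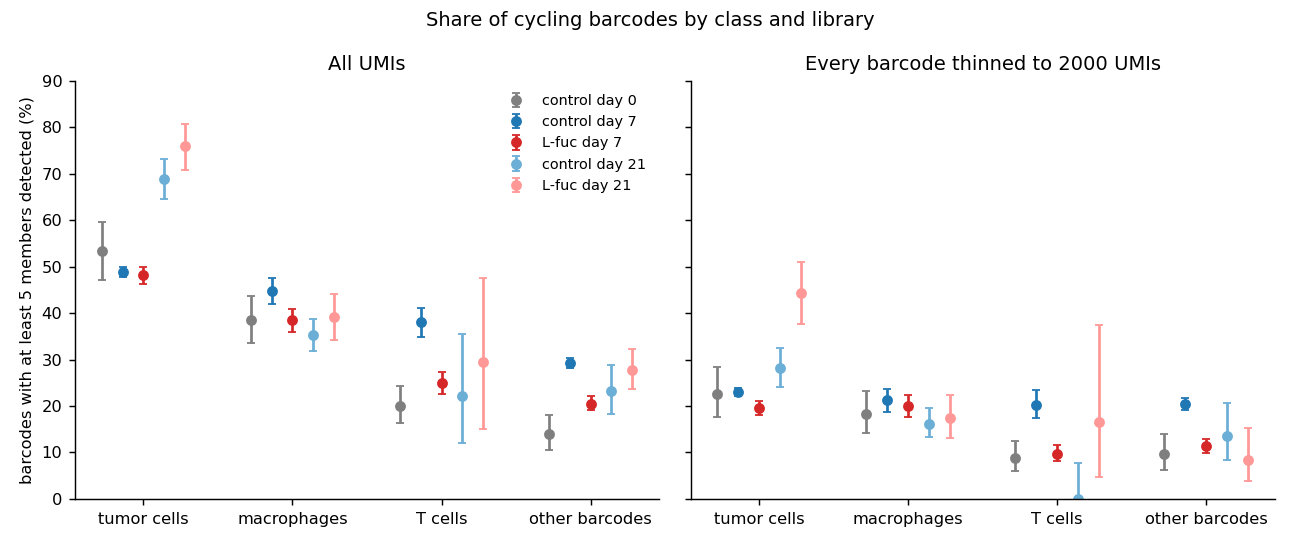
Percent of barcodes with at least 5 of 42 members in tumor cells, macrophages, T cells and other barcodes of each library, before and after thinning to 2000 UMIs, with 95% Clopper-Pearson intervals. Tumor cells reach 69.0% and 76.1% at day 21, and thinning brings macrophages and tumor cells of L-fuc day 7 to 20% and 19.5%.

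Member transcripts were concentrated in few barcodes. The tenth of barcodes richest in members held 50.7% to 69.6% of member UMIs in tumor cells and 57.5% to 74.3% in macrophages. Barcodes below the cutoff had members at 242, 473, 270, 252 and 367 CPM in tumor cells, 271, 554, 404, 316 and 357 CPM in macrophages, and 352, 822, 460, 456 and 418 CPM in T cells. In each class the control day 7 library was highest, which is also the library with the most tumor RNA in immune barcodes. The part of free RNA in the level below the cutoff was not tested.

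The balance of S and G2/M members was also compared between classes. S members gave 28.5%, 27.4%, 31.9%, 28.5% and 27.4% of member UMIs in tumor cells, 39.7%, 29.8%, 34.4%, 36.6% and 30.1% in macrophages, and 45.6%, 30.8%, 36.2%, 48.9% and 30.8% in T cells. The tumor share was below the macrophage share in 5 of 5 libraries, with a mean difference of -5.40 points (SD 4.03, n = 5, exact sign-flip p = 0.062). Tumor cells lay below T cells by -9.71 points on average and macrophages below T cells by -4.31 points, also in 5 of 5 libraries each (exact sign-flip p = 0.062). Without Rrm2, Tk1, Pclaf and Stmn1, whose peak phase is less settled, the tumor minus macrophage difference was -4.90 points in 5 of 5 libraries. Under that setting tumor cells lay below T cells in 4 of 5 libraries (-9.81 points, exact sign-flip p = 0.125), as did macrophages (-4.91 points, exact sign-flip p = 0.3125). Macrophages also lay below T cells in only 4 of 5 libraries after thinning (exact sign-flip p = 0.1875) and with Sox10-free barcodes (exact sign-flip p = 0.125). Both immune classes were most S-rich at day 0 or control day 21, and the 48.9% of control day 21 T cells rests on 92 of 188 UMIs.

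**Figure D4:**
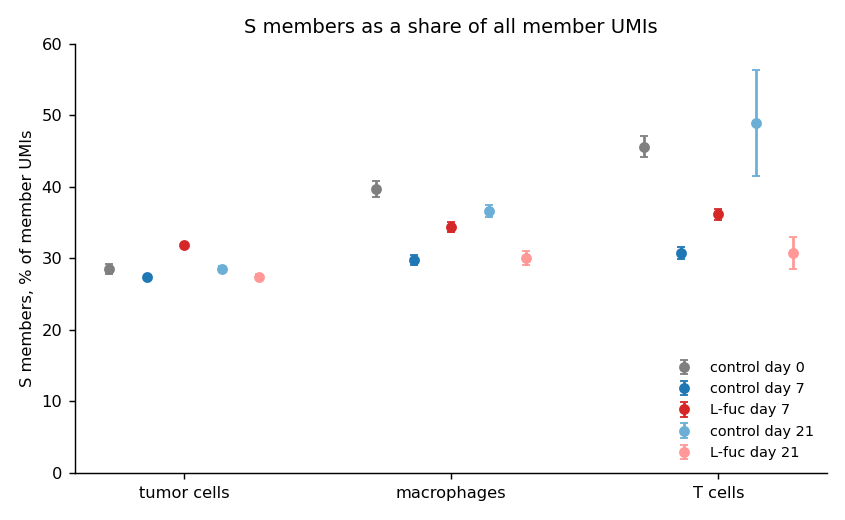
Percent of member UMIs that came from the 17 S members, by library, in tumor cells, macrophages and T cells, with 95% Clopper-Pearson intervals (counting error only). Tumor cells are the lowest class in every library, from 27.4% to 31.9%, and T cells at control day 21 have the widest interval.

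The control libraries were compared over time within each class. From day 0 to day 7 the cycling share was 0.914-fold in tumor cells (95% interval 0.814 to 1.03), 1.16-fold in macrophages (1.01 to 1.34) and 1.89-fold in T cells (1.53 to 2.34). At equal depth the T cell ratio was 2.28, and without Sox10-positive barcodes it was 1.57 (1.26 to 1.97), while the macrophage ratio was 1.01 without such barcodes. In T cells, 8 of 42 members were at least 2-fold higher and 0 lower at day 7, where 26% of all genes were higher and 6% lower. The higher count is thus below the share of all genes. All 8 members were G2/M members, led by Cenpf (log2 ratio 2.32), the kinetochore motor Cenpe (1.93), Mki67 (1.91), the spindle factor Tpx2 (1.72) and Top2a (1.54). The S members had a median of -0.06 against 0.69 for G2/M members, beside 0.35 over all genes. In macrophages 6 of 42 members were at least 2-fold higher and 1, Tk1, was lower (-1.06), where 27.4% and 3.21% of all genes were. There too the higher count is below the share of all genes. Cenpf (1.26), Mki67 (1.21), Bub1 (1.12) and Ccne2 (1.12) led in macrophages, and the medians were -0.08 for S members and 0.36 for G2/M members beside 0.38 over all genes. In tumor cells no member passed 2-fold, where 9.69% of all genes were higher and 5.4% lower. Summed tumor markers stood beside these values at 9.11 CPM at day 0 and 1822 CPM at day 7 in T cells, and at 77.4 and 1109 CPM in macrophages, and apart from the Sox10-free shares their part in the member levels was not tested.

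Between control day 7 and control day 21 tumor cells had the ratio above 1 and macrophages the ratio below it. The cycling share was 1.41-fold in tumor cells (95% interval 1.32 to 1.51) and 0.786-fold in macrophages (0.702 to 0.881). At equal depth the tumor ratio was 1.22 (1.05 to 1.42) and the macrophage ratio 0.765, and the macrophage ratio was 0.906 (0.799 to 1.03) once Sox10-positive barcodes were left out. In tumor cells 40 of 42 members were higher at day 21, with a median log2 ratio of 0.57 against 0.16 over all genes. Only Plk1, a mitotic kinase, was at least 2-fold higher (1.16) and 0 were lower, where 8.19% and 8.03% of all genes were. Macrophages had Tk1 at least 2-fold higher (1.05) and Ccne2 (-1.69) and Pbk (-1.03) at least 2-fold lower, where 4.38% and 17.4% of all genes were, with medians of -0.03 for S members and -0.44 for G2/M members beside -0.18 over all genes. Median depth per tumor cell was 7394 UMIs at day 7 and 22260 at day 21, and depth was not tested for the CPM values.

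L-fuc day 7 was compared with control day 7, the library that the time course also used, so these ratios are not independent of it. The cycling share was 0.986-fold in tumor cells (95% interval 0.943 to 1.03), 0.859-fold in macrophages (0.786 to 0.939) and 0.656-fold in T cells (0.579 to 0.742). At equal depth the T cell share was 9.76% with L-fuc and 20.2% in control, a ratio of 0.482 (0.383 to 0.608), and the ratio without Sox10-positive barcodes was 0.701 (0.602 to 0.815). For macrophages the ratio was 0.944 (0.802 to 1.11) at equal depth and 0.936 (0.842 to 1.04) without Sox10-positive barcodes, so both intervals span 1. The macrophage ratio was 1.03 when both steps were applied at once. Tumor cells, whose median depth was 14039.5 UMIs with L-fuc and 7394 in control, had a ratio of 0.847 (0.776 to 0.924) at equal depth.

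Summed member levels were lower with L-fuc at day 7 in each class, with log2 ratios of -0.21 in tumor cells, -0.17 in macrophages and -0.43 in T cells. Without Sox10-positive barcodes the macrophage sum was not lower, at 1751 CPM with L-fuc and 1730 CPM in control. The T cell sums were then 1699 and 2312 CPM. In tumor cells 9 of 42 members were higher, with median ratios of 0.01 for S members and -0.35 for G2/M members, and none passed 2-fold, where 2.85% of all genes were higher and 5.79% lower. T cells showed the same lean, with medians of -0.25 for S members and -0.68 for G2/M members, beside -0.18 over all genes. In T cells Cenpf was at 93.0 CPM in control and 37.6 CPM with L-fuc (log2 ratio -1.31), and Mki67 was at 180.2 and 86.0 CPM (-1.07). These were the 2 members at least 2-fold lower in T cells, where 10.6% of all genes were, and 0 were at least 2-fold higher, where 3.67% of all genes were. No macrophage member passed 2-fold, where 2.48% of genes were higher and 10.6% lower, and the member median of -0.19 lay beside -0.23 over all genes. The S share of member UMIs was accordingly higher with L-fuc at day 7 in all 3 classes. Summed tumor markers were 646 CPM in T cells with L-fuc and 1822 CPM in control, and hemoglobin transcripts were 4110 and 1623 CPM; the part of hemoglobin RNA in the result was not tested.

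At day 21 tumor cells of the L-fuc library had more member RNA than those of the control library. The cycling share was 76.1% against 69.0%, a ratio of 1.10 (95% interval 1.01 to 1.20), and it was 44.3% against 28.1% at equal depth, a ratio of 1.58 (1.28 to 1.94). All 42 members had a higher level with L-fuc, with a median log2 ratio of 0.41 against -0.00 over all genes, and none passed 2-fold, where 3.37% of all genes were higher and 1.93% lower. Top2a was at 433 CPM with L-fuc and 286 in control, Mki67 at 266 and 180.4, and Bub1 at 40.7 and 26.9. Ccne2 had the largest log2 ratio, 0.69. Median depth per tumor cell was 24199 UMIs with L-fuc and 22260 in control, but among tumor cells below the cutoff it was 3285 and 15253.5 UMIs. Thinning kept 228 of 297 tumor cells with L-fuc and 452 of 471 in control, so shallow barcodes were left out mostly on the L-fuc side, and their part in the ratio at equal depth was not tested. G2/M members had a median of 0.41 and S members of 0.27. In macrophages the ratio of cycling shares was 1.11 (0.949 to 1.30), 14 of 42 members were higher, and the median was -0.20 against 0.04 over all genes. Ccne2 alone passed 2-fold there (1.15), where 6.89% of all genes were higher and 1.42% lower. S members in macrophages were lower by their median (-0.37) and G2/M members close to level (-0.03). Among T cells of L-fuc day 21, 2 barcodes held 1057 and 400 of the 1661 member UMIs. Summed members were at 4326 CPM with those barcodes and 747 CPM without them, beside 686 CPM in control day 21.

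**Figure D5:**
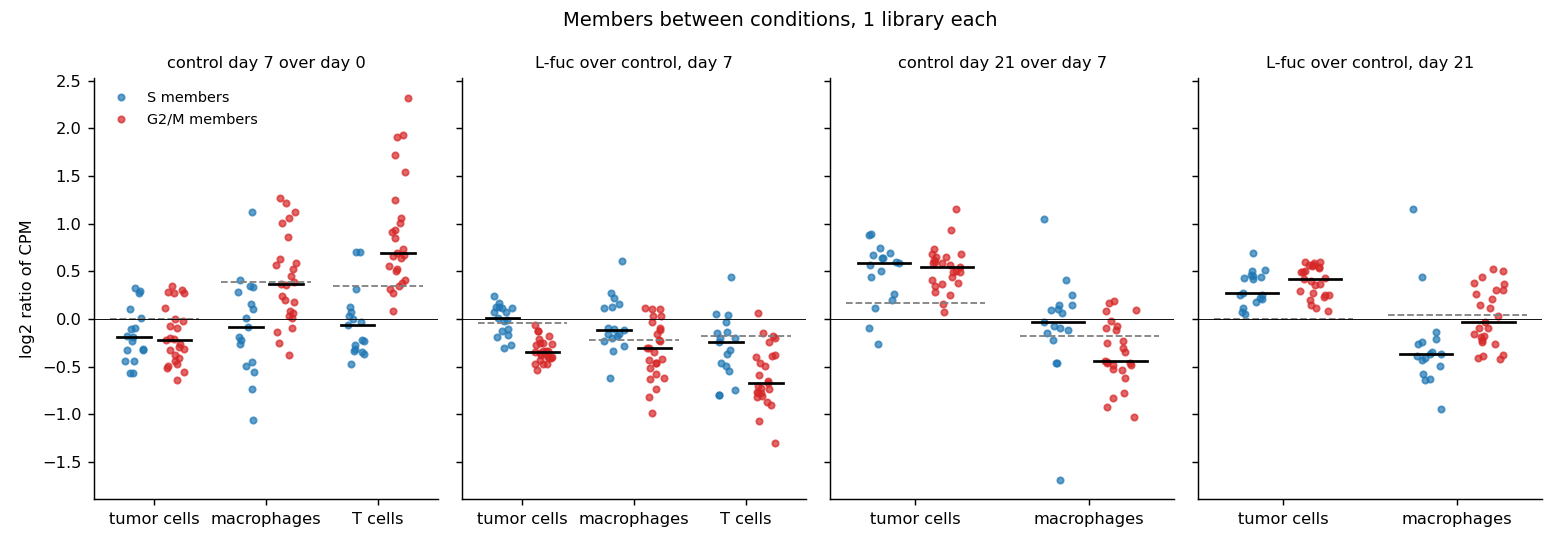
Log2 ratio of each member's level between libraries for the control time course and for L-fuc over control, in tumor cells and macrophages and, at day 7, T cells, with 1 point per member, solid lines at the S and G2/M medians and dashed lines at the median of all genes. In tumor cells all 42 points lie above 0 at day 21, and in T cells at day 7 the medians of L-fuc over control are -0.68 for G2/M and -0.25 for S members.

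Other cell cycle genes were compared between cycling barcodes and barcodes with 0 or 1 member. This division uses the members themselves, so it describes which other transcripts go along with them. In tumor cells (4 libraries with at least 20 barcodes on each side) all 33 other S phase genes and all 34 other G2/M genes were higher in every library, with median log2 ratios of 2.10 and 3.07, where 25.6% of all genes were. In macrophages (5 libraries) 28 of 33 and 33 of 33 were, where 16.1% of all genes were, and in T cells (3 libraries) 29 of 31 and 26 of 27 were, where 28.4% were. Prc1, which bundles the central spindle, had a median of 4.30 in tumor cells, and Hells, a chromatin remodeler of replicating cells, 3.53. Of the G1 cyclins, kinases and transcription factors, 9 of 14 were higher in every library in tumor cells, 7 of 14 in macrophages and 10 of 13 in T cells. Foxm1, the transcription factor of G2/M genes, led them in tumor cells at 3.24, followed by Mybl2 (which encodes B-MYB) at 2.48. The D cyclins, which answer to growth signals, had medians of 0.30 (Ccnd1), -0.28 (Ccnd2) and -0.22 (Ccnd3) in tumor cells, where E2f3 (0.02) and Cdk6 (0.14) were also not higher in every library. In macrophages all 3 D cyclins were higher in 5 of 5 libraries, at 0.56, 0.57 and 0.80. Immune barcodes with a Sox10 UMI were kept in this division. Among barcodes with 0 or 1 member, Ccnd1, Ccnd2 and Ccnd3 had medians of 462, 321 and 287 CPM in tumor cells. In macrophages those medians were 107, 55.2 and 36.0 CPM. The part of tumor RNA in the immune ratios was not tested.

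Cell cycle inhibitors did not share one direction. In tumor cells 3 of 12 were higher and 4 lower in every library, where 25.6% and 19.5% of all genes were, so the higher count is near the share of all genes. Cdkn1a, which encodes the p21 inhibitor induced by p53, had a median log2 ratio of -1.35 in tumor cells and was lower in all 4 libraries. In macrophages it was at 0.08, positive in 3 of 5 libraries (3 of 12 inhibitors were higher in every library and 1 lower, where 16.1% and 5.15% of all genes were), and in T cells at 0.60, positive in 3 of 3. Cdkn2c, which encodes the p18 inhibitor of CDK4 and CDK6, went the other way from Cdkn1a in tumor cells, with medians of 1.28 in tumor cells and 1.56 in macrophages. In T cells the antiproliferative genes Btg1 (-0.55) and Btg2 (-0.85), Cdkn1b (-0.49) and Rb1 (-0.56) were lower in all 3 libraries, 4 of 12 inhibitors where 17.5% of all genes were. Cdkn2a (0.88) and Cdkn2c (0.53) were, like Cdkn1a, higher in all 3. These were 3 of 12 inhibitors, where 28.4% of all genes were higher. Immune barcodes with a Sox10 UMI were kept for the inhibitors too, and the part of tumor RNA in their immune ratios was not tested. Among genes on none of these lists with at least 50 UMIs in cycling tumor cells of each library, those that went most with the members were Hist1h2ae (4.21), Aspm (4.17), Spc24 (4.11), Sgo2a (3.97), Hist1h2ap (3.87), Kifc1 (3.83), Knl1 (3.82), Pimreg (3.70), Lmnb1 (3.68) and Kif22 (3.68), ranked by the median log2 ratio over 4 libraries.

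Within T cells the receptor libraries allowed a division by clone size. At day 0, 38.0% of T cells in clonotypes of 2 or more barcodes were cycling (27 of 71, Clopper-Pearson 95% interval 26.8 to 50.3) against 14.6% of those in clonotypes of 1 (36 of 246, 10.5 to 19.7). Thinning to 2000 UMIs left 21.7% and 5.29%. The intervals by clone size cover counting error within 1 library only. They take barcodes as independent, although barcodes of the same clonotype are related. At day 7 the shares before thinning were close, at 42.0% and 42.7% in control and 24.9% and 25.8% with L-fuc. After thinning they were 23.2% and 18.9% in control and 9.57% and 6.84% with L-fuc, higher in the larger clonotypes but with overlapping intervals. At control day 21 the larger clonotypes had the lower share, 15% (3 of 20, 3.21 to 37.9) against 33.3% (7 of 21, 14.6 to 57.0). Both shares were 0% there after thinning, and L-fuc day 21 had 0 T cells in clonotypes of 2 or more. T cells with a Foxp3 UMI, the mark of regulatory T cells, were cycling in 40.6% of 101 barcodes at control day 7 and 46.4% of 110 at L-fuc day 7. CD8 T cells had 39.3% and 26.6%, and Cd4 T cells without Foxp3 38.6% and 21.7%. Before thinning, the lower share with L-fuc was seen in the CD8 and Foxp3-negative Cd4 barcodes only, and whether the Foxp3 barcodes differed from them was not tested. Median depth of the Foxp3 barcodes was 4169 UMIs in control and 6617 with L-fuc. After thinning, the Foxp3 shares were 24.4% and 18.4%, with overlapping intervals. The CD8 shares were then 22.4% and 11.1%, and those of Cd4 T cells without Foxp3 20% and 5.98%. At equal depth the share was thus lower with L-fuc in each of these groups. T cells with a Sox10 UMI, 25.1% at control day 7 and 8.75% at L-fuc day 7, were kept in the divisions by clone size and marker. The part of tumor RNA in these shares was not tested.

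Other barcodes, which passed none of the 3 gates, had cycling shares of 14.0%, 29.2%, 20.5%, 23.3% and 27.8%. With L-fuc at day 7 the ratio to control was 0.703 (95% interval 0.647 to 0.763), summed members differed by -0.56 on the log2 scale, and 5 of 42 members were at least 2-fold lower and 0 higher, where 4.61% and 14% of all genes were. The 5 were all G2/M members: Mki67 (-1.29), Cenpf (-1.16), Bub1 (-1.13), Cenpe (-1.12) and Top2a (-1.10). At day 21 another 5 G2/M members were at least 2-fold lower with L-fuc, Cdk1 (-1.39) and Ube2c (-1.36) foremost, and 0 were higher, where 9.75% and 3.82% of all genes were. The lower count at day 21 is near the share of all genes. From control day 0 to day 7, 7 of 42 members of the other barcodes were at least 2-fold higher and 0 lower, where 25.4% and 15.5% of all genes were. The higher count is thus below the share of all genes. Of the 7, 5 were S members, led by Ccne2 (2.01), Cdc6 (1.77) and Uhrf1 (1.68). By median log2 ratio, however, S members stood at 0.29 and G2/M members at 0.56, beside 0.30 over all genes. From control day 7 to day 21 only Stmn1 passed 2-fold (-1.16), where 8.52% of all genes were lower and 20.6% higher. Markers of several cell types differed beside the day 7 values: in the other barcodes NK markers were at 204 CPM in control and 2182 CPM with L-fuc, mast cell markers at 11.6 and 256, fibroblast markers at 566 and 1573, red cell markers at 2051 and 7541, and tumor markers at 3284 and 2262. A Sox10 UMI was held by 22.4% of other barcodes at control day 7 and 13.7% at L-fuc day 7. No setting left such barcodes out of this class. At day 21 fibroblast markers in the other barcodes were at 12697 CPM in control and 8891 CPM with L-fuc. Neutrophil markers there were at 1186 and 944 CPM, against 53.5 CPM at control day 7. The part of these cell types in the member values was not tested at either day. NK cells (Ncr1 and Klrb1c) were cycling in 28.8% of 212 barcodes at control day 7 and 14.0% of 492 at L-fuc day 7, or 16.1% (10.3 to 23.3) and 4.35% (2.64 to 6.71) after thinning, with intervals of counting error within 1 library each. Neutrophils, which do not divide after leaving the marrow, were cycling in 2 of 44 barcodes over all libraries (4.55%), and in 0 of 33 after thinning, where the interval reaches 10.6%. Their median depth was 2583 UMIs, and theirs is the share found here in a cell type that should lack the members. B cells had shares of 10.3% (13 of 126), 25% (6 of 24), 18.2% (4 of 22), 31.3% (5 of 16) and 36.4% (12 of 33). Their median depth was 3297.5, 5190, 9344.5, 27029 and 27216 UMIs. After thinning the B cell shares were 9.09%, 4.55%, 4.76%, 18.8% and 15.2%. Mast cells had 41.7% over all libraries (20 of 48), of which 17 of 38 came from L-fuc day 7. Mast cell median depth was 7821 UMIs, and thinning left 22.7% (10 of 44).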

How the data were processed

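Cells from pooled tumors were measured by droplet RNA sequencing in 5 libraries, with 5 matched receptor libraries. The authors deposited UMI counts per gene and barcode, unnormalized (Cell Ranger 3.0 in the submitters' processing notes, 7.1.0 in the file headers, mouse build mm10), and receptor contig tables. The members and gene lists were chosen with earlier results of these data known. Barcodes were kept, gated and thinned as given above, with a fixed random seed. Doublets were marked by Scrublet (scanpy 1.11.5) and left out only as an alternative, since it marked 2, 344, 187, 2 and 1 barcodes. UMI sums were tested with edgeR 4.0.16 (glmQLFit, glmQLFTest, filterByExpr, R 4.3.3), DESeq2 1.42.0 being the alternative, and the scripts were tested on simulated data. The SE of a log2 difference is its size divided by the root of the F statistic. Shares have Clopper-Pearson intervals, and ratios of shares Katz intervals. For log2 ratios between conditions 1 UMI was added to each sum, and a gene needed 10 UMIs over the pair of libraries. Libraries differ in time and treatment, so p-values over the 5 libraries measure the spread of class differences across them. Genes named in full were the 5 highest members of each class, the 5 largest differences past the threshold in each class contrast, members past 2-fold between conditions (up to 5 each way), and the 10 genes outside all lists that went most with cycling tumor barcodes. Markers of other cell types and further members were named for their roles.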

Additional observations from a re-analysis of the deposited data

Results flagged for a closer look

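The difference between the L-fuc and control libraries in summed member level pointed opposite ways at day 7 and day 21 in tumor cells. On the log2 scale L-fuc over control gave -0.21 at day 7 and 0.38 at day 21. In T cells it was -0.43 at day 7 and 2.66 at day 21, where 2 of 34 barcodes held most of the member UMIs of the L-fuc library. With 1 library for each condition the difference between the days was not tested in either class.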

How the results depend on the processing

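Each setting was changed alone unless stated, and the cause of each shift below was not tested. Among ratios of cycling shares whose interval lay off 1, one changed side: L-fuc over control at day 7 in macrophages was 1.03 with thinning to 2000 UMIs and Sox10-free immune barcodes together, a setting added after the data were seen. Ratios whose interval spanned 1 also changed side, namely L-fuc over control at day 7 in tumor cells (0.986, and 1.01 from 8 members up or 1.00 with barcodes of several gates kept), at day 21 in other barcodes (1.20, below 1 after thinning and from 8 members up) and control day 7 over day 0 in tumor cells (0.914, and 1.02 after thinning). Thinning alone gave L-fuc over control ratios at day 7 of 0.847 in tumor cells, 0.944 in macrophages, 0.482 in T cells and 0.555 in other barcodes, and at day 21 of 1.58 in tumor cells and 0.611 in other barcodes, with 1.22 for control day 21 over day 7 in tumor cells. With both steps the day 7 T cell ratio was 0.491. A minimum of 200 genes gave day 7 ratios of 0.748 in macrophages and 0.463 in other barcodes, 1.77 in other barcodes at day 21, and 0.676 and 0.622 for control day 21 over day 7 in macrophages and other barcodes. A cutoff of 8 members gave 0.789 in T cells and 0.630 in other barcodes at day 7, 0.593 in other barcodes at day 21, 1.52 and 1.24 for control day 7 over day 0 in T cells and other barcodes, and 1.63 for control day 21 over day 7 in tumor cells. A cutoff of 3 members gave 1.58 in other barcodes at day 21, and 1.16 and 0.576 for control day 21 over day 7 in tumor cells and other barcodes. T cells that passed a further gate, when kept, gave 0.780 at day 7, and Sox10-free macrophages gave 0.906 for control day 21 over day 7.

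For tumor cells against macrophages, members called higher numbered 14 with DESeq2, 35 with library totals and 17 with Sox10-free immune barcodes, and members called lower 0 with library totals, 3 after thinning, 1 to 2 with 1 library left out and 3 without both day 21 libraries (added after the data were seen). Over all genes, 5003 of 13575 were higher with DESeq2, 7584 of 13575 with library totals and 4964 of 13231 with Sox10-free barcodes. Lower were 2948 of 13575 with library totals and 3164 of 10122 after thinning. For tumor cells against T cells, 18 were higher with library totals, 17 with Sox10-free barcodes and 17 without the day 21 libraries, where 1 was lower. Over all genes, 5072 of 13575 were higher there with library totals and 5069 of 13231 with Sox10-free barcodes. For macrophages against T cells, members called higher numbered 0 with library totals, 1 with no filter on low counts, 1 without the library block, 7 after thinning, 0 to 4 with 1 library left out and 7 without the day 21 libraries. Members called lower there numbered 2 with DESeq2, without the library block, without Scrublet doublets or with Sox10-free barcodes, 3 with library totals, 0 after thinning or without the day 21 libraries, and 0 to 2 with 1 library left out. Over all genes, 1851 of 13575 were higher and 4921 lower with library totals, and 1976 of 10122 and 1594 after thinning. Lower were also 2913 of 13575 with DESeq2 and 2699 of 13231 with Sox10-free barcodes. Counts over all genes for the remaining settings are not given here.

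Between conditions, the summed log2 ratio at day 7 was -0.39 in T cells and -0.53 in other barcodes without Scrublet doublets, and -0.58 in other barcodes from 200 genes up. No macrophage member passed 2-fold at day 21 with at least 30 UMIs (0), and 2 members of other barcodes were lower at control day 21 over day 7 with a pseudocount of 0.1 UMI or from 200 genes up. The other values were called members between classes, cycling shares per class and library, and the summed member level of L-fuc day 21 T cells. Of these, 400 stayed close to the reported value or kept their call. Another 94 moved, all of them cycling shares outside the reported interval or that summed level. Single members lost their call in 42 values, and none changed sign. Thinned T cell ratios against control day 21 have no value, since 0 of 46 barcodes were cycling there. No paired analysis was possible because the groups share replicate number 1 only, so no number pairs samples between conditions. Few T cells at day 21 and 1 library for each condition set the precision.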
